A study of Danio rerio with 23 samples.

Results

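The TGF-beta and BMP pathway genes described here were the genes of the count table whose zebrafish symbol, with case ignored, starts with tgfb, bmp, smad, acvr or gdf. The rule found 63 genes under 52 symbols, of 22856 genes listed. It used no measured value, but it was chosen with earlier results of these data known. RNA was sequenced from whole larvae at 96 hpf (hours post fertilization) in 23 libraries, from clutches with 20 larvae each as far as the study describes them. The 4 genotypes were WT (6 libraries), AKR1A1AKO (5), GLO1KO (6) and GLO1/AKR1A1A DKO (6), called DKO here. All larvae, controls included, carried the Tg(fli1:EGFP) transgene, in which a vascular promoter drives a green fluorescent protein, and none was treated. The single knockout lines were made by CRISPR/Cas9, and DKO came from crossing the single lines and intercrossing the double heterozygotes. Other differences between the lines cannot be told apart from genotype in these data. GLO1 and AKR1A1A are enzymes that detoxify reactive carbonyls, methylglyoxal and acrolein among them, and the comparisons ask how transcript levels differ when 1 or both enzymes are lost.

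TGF-beta superfamily ligands are secreted dimers that bring type II and type I receptor kinases together at the cell surface. The activated type I receptor phosphorylates receptor-regulated smads, SMAD2 and SMAD3 for TGF-beta, activin and nodal signals and SMAD5 and its relatives for BMP signals, and these enter the nucleus with the shared partner SMAD4. The inhibitory smads SMAD6 and SMAD7 are themselves induced by signaling and block the receptors. In zebrafish, BMP and nodal signals pattern the early embryo, and the pathway later acts in cartilage, bone, heart and vessels.

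Levels are CPM, the count of a gene scaled to a common library size, after TMM scaling. Genes were called differentially expressed at a Benjamini-Hochberg adjusted p below 0.05 over all genes tested and a fold change above 1.5, from edgeR's quasi-likelihood test. The 63 genes comprised 26 ligands (5 TGF-beta, 11 BMP and 10 GDF), 11 type I receptors, 9 type II receptors, 1 co-receptor, 11 smads and 5 proteases, binding or matrix proteins. Of these, 57 passed the filter on low counts in every comparison, bmp7a and gdf6b in some, and BMP10, bmp15, GDF2 and GDF9 in none, with at most 6, 11, 8 and 5 counts in any library. For 11 symbols the table held 2 genes each, told apart here by the Ensembl ID. How reads shared between such copies were counted is not given in the sources used here.

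The libraries held between 34316527 and 36804437 counts each. The targeted gene glo1 held 73.5 to 87.1 CPM in WT and 74.5 to 86.9 CPM in AKR1A1AKO libraries, against 2.85 to 3.45 CPM in GLO1KO and 2.73 to 4.16 CPM in DKO libraries, so the libraries matched their labels for this gene, and akr1a1a was not analysed here. On the first principal component of all genes the WT libraries were spread from -204 to -83.7, apart from AKR1A1AKO (-45.7 to 5.65), GLO1KO (56.9 to 84.0) and DKO (66.7 to 85.2), with WT replicate 1 at the far end. The WT values followed the replicate number toward the knockout libraries, at -204, -150, -123, -111, -98 and -83.7 in replicates 1 to 6. The AKR1A1AKO values nearly did, at -45.7, -30.8, -16.4, 5.65 and -7.67. What set this order, and its part in the results below, was not tested. Marker genes of tissues in the larva also moved with genotype. The summed CPM of 22 cartilage genes was 4170 to 5470 in WT, 3360 to 4400 in AKR1A1AKO, 3420 to 3630 in GLO1KO and 3650 to 4060 in DKO libraries, and that of 9 erythrocyte genes was 401 to 460, 263 to 392, 307 to 340 and 285 to 362 CPM in the same order. The 15 photoreceptor genes summed to 5270 to 7520 CPM in WT and to 8480 to 10400 CPM in the knockout libraries. The 25 skeletal muscle genes summed to 74300 to 83800 CPM in WT and 84000 to 93300 CPM in DKO libraries, although 7 of these genes were called lower and 1 higher in DKO, with a median log2 fold change of -0.13. Their sum was 66400 to 89900 CPM in AKR1A1AKO and 69200 to 88000 CPM in GLO1KO libraries, which spans the WT range on both sides. The 15 endothelial genes summed to 169 to 224 CPM in WT, 155 to 175 in AKR1A1AKO, 166 to 178 in GLO1KO and 160 to 176 CPM in DKO libraries. The 11 bone genes summed to 92.8 to 174, 73.5 to 97.7, 77.8 to 82.7 and 84.1 to 95.0 CPM in the same order. No marker gene was at 0 in all libraries, and the part of these tissue differences in the results below was not tested. In whole larvae, fewer cells of a type and less RNA per cell cannot be told apart.

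Between DKO and WT larvae, 17 pathway genes were lower and 1 was higher, of 58 tested. Over all genes tested, 25.3% were called in this comparison, 18% lower and 7.32% higher. Of the 58 pathway genes tested, 31.0% were called in either direction, and 29.3% of the 58 were called lower. The median log2 fold change of the pathway genes was -0.33, and that of all genes was -0.01. Without the fold threshold 36 of the 58 passed, where 61% of all genes did. The CPM ranges of DKO and WT libraries did not overlap for 25 pathway genes, 20 of them lower in DKO, against 37.9% of all genes, 18.4% lower. Without WT replicate 1, 17 of the 18 calls remained. With scaling by library size alone, which moved the median of all genes to -0.18, the count was 23 and all were lower, and 7 genes changed sign, none of which had been called. Under that scaling 5537 of all 19765 genes tested were called, 681 of them higher (12.3% of those called). Under TMM 5007 were called, 1447 of them higher.

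**Figure D1:**
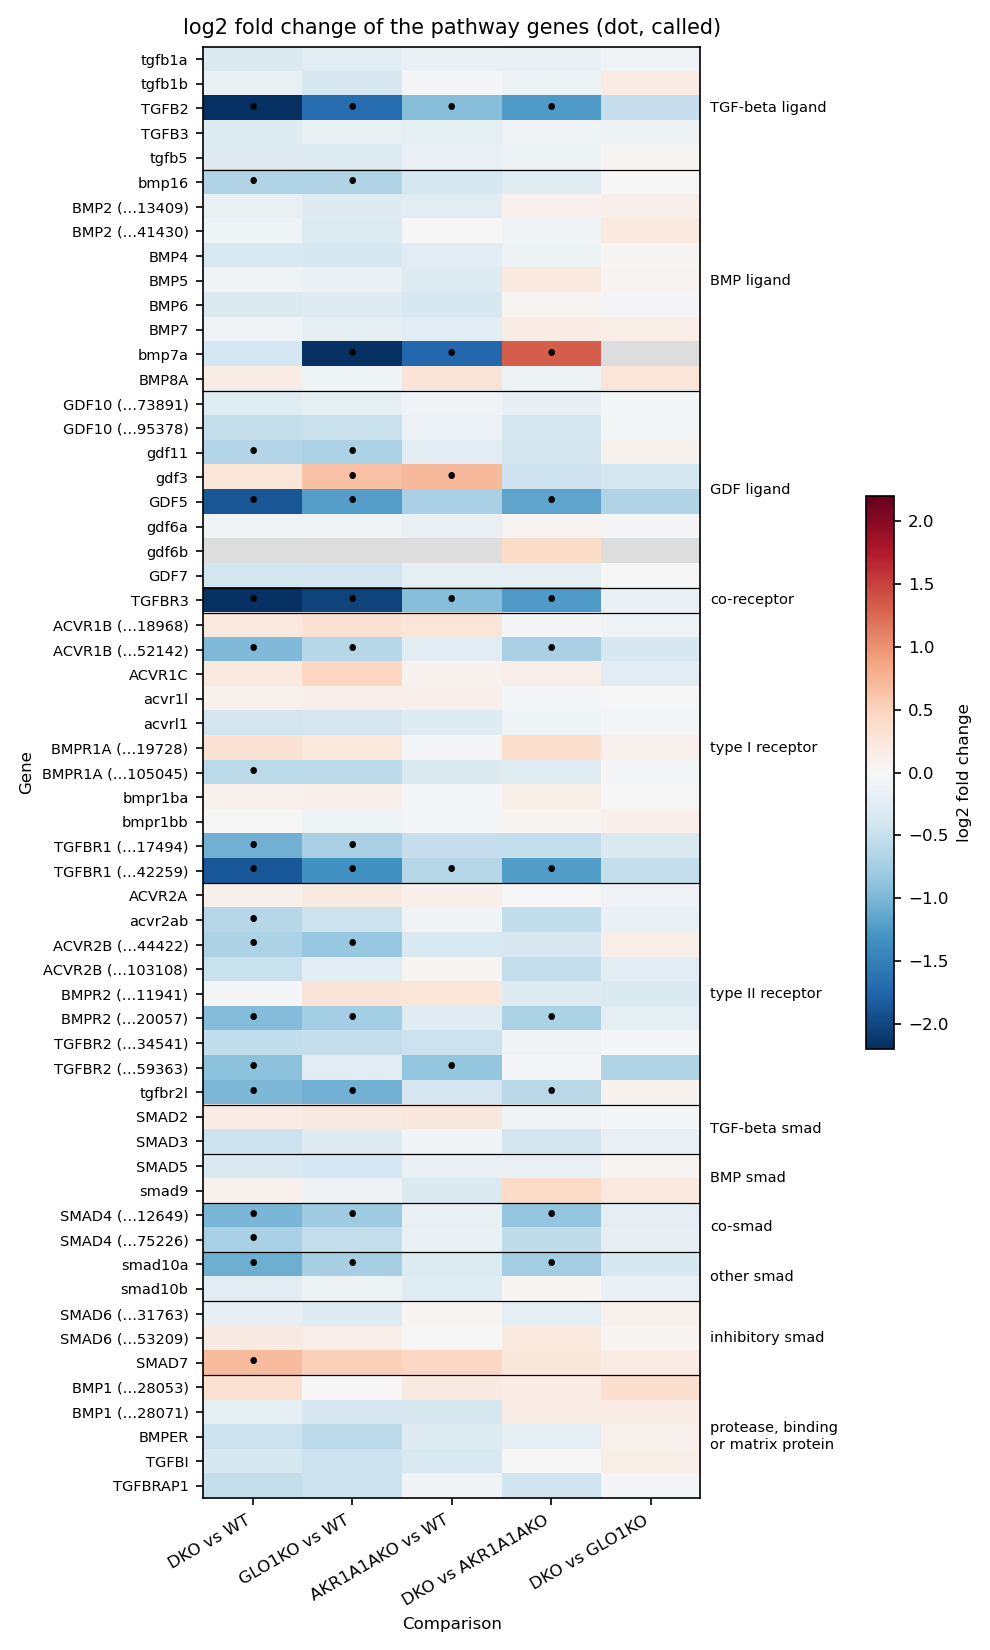
Fitted log2 fold change (color) of the 59 pathway genes tested in at least 1 comparison (rows, grouped by role) in the 5 pairwise comparisons (columns), with a dot where a gene was called and gray where it was not tested. The last digits of the Ensembl ID are given where a symbol names 2 genes. TGFB2, TGFBR3 and TGFBR1 (ENSDARG00000042259) carry dots in 4 columns, and the column of DKO against GLO1KO holds no dot.

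Among the TGF-beta ligands, TGFB2, which in vertebrates acts in heart valve, craniofacial and eye development, was decreased in every knockout. It ranged from 4.38 to 7.63 CPM in WT libraries, with a median of 5.36. The AKR1A1AKO libraries held 3.70, 3.34, 2.33, 2.14 and 3.36 CPM, the GLO1KO libraries 1.61 to 1.95 CPM with a median of 1.80, and the DKO libraries 0.906 to 1.78 CPM with a median of 1.22. All knockout libraries were below all WT libraries, and the GLO1KO and DKO ranges overlapped. The log2 fold change against WT was -2.2 (SE 0.171, adjusted p = 8.3e-08) in DKO, -1.68 (SE 0.134, adjusted p = 2e-07) in GLO1KO and -0.94 (SE 0.174, adjusted p = 0.00229) in AKR1A1AKO. TGFB2 was also lower in DKO than in AKR1A1AKO, by -1.25 (SE 0.197, adjusted p = 0.000148).

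The other TGF-beta ligands were not called in any comparison. TGFB3, a ligand known for palate and heart development in vertebrates, held 30.7 ± 1.95 CPM (SD, n = 6) in WT and 25.2 ± 1.81 CPM (SD, n = 6) in DKO libraries. All 6 DKO libraries were below all 6 WT libraries, but the log2 fold change of -0.29 (SE 0.0614, adjusted p = 0.000797) was under the fold threshold. tgfb1a, a zebrafish copy of the immune-regulatory ligand TGFB1, gave -0.31 (SE 0.0911, adjusted p = 0.00782), and tgfb1b and tgfb5 gave -0.17 (adjusted p = 0.609) and -0.29 (adjusted p = 0.392).

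Of 11 BMP ligands, 9 were tested in DKO against WT and 1 was called, where 25.3% of all genes tested were called. bmp16, a fish ligand related to BMP2 and BMP4, ranged from 11 to 14.3 CPM in WT (median 11.8), 7.96 to 10.9 in AKR1A1AKO, 7.10 to 8.75 in GLO1KO (median 7.64) and 6.78 to 10.2 in DKO libraries (median 7.48). Every knockout library was below every WT library. It fell by 0.66 on the log2 scale in DKO (SE 0.106, adjusted p = 8.3e-05) and by 0.66 in GLO1KO (SE 0.0848, adjusted p = 1.21e-05), and the value in AKR1A1AKO was -0.39 (SE 0.101, adjusted p = 0.0105). The classical ligands BMP2, BMP4, BMP5, BMP6 and BMP7, which act in dorsoventral patterning and skeletal development, were not called in any comparison. For BMP4 the value in DKO against WT was -0.34 (SE 0.118, adjusted p = 0.0212), and for BMP7 it was -0.08 (SE 0.0779, adjusted p = 0.411).

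bmp7a, a zebrafish copy of BMP7 that patterns the ventral side of the embryo, was scarce but differed between genotypes. It held 0.400 to 1.05 CPM in WT (median 0.725), 0.110, 0.271, 0.316, 0.195 and 0.164 CPM in AKR1A1AKO, 0.0285 to 0.328 CPM in GLO1KO (median 0.103) and 0.245 to 0.937 CPM in DKO libraries (median 0.488). Both single knockouts lay below every WT library, whereas the DKO range overlapped that of WT. The counts behind these values were 1 to 11 in GLO1KO, 4 to 11 in AKR1A1AKO, 8 to 31 in DKO and 15 to 41 in WT libraries. Against WT, the single knockouts passed the filter on low counts through the WT libraries, where the gene was highest, so these calls rest on few counts. bmp7a was lower than WT by -2.19 in GLO1KO (SE 0.419, adjusted p = 0.000366) and by -1.73 in AKR1A1AKO (SE 0.351, adjusted p = 0.00352), was not called in DKO against WT (-0.39, SE 0.339, adjusted p = 0.338), and was higher in DKO than in AKR1A1AKO by 1.34 (SE 0.393, adjusted p = 0.0127). The DKO and AKR1A1AKO ranges overlapped, and in that comparison bmp7a passed the filter mainly through the DKO libraries. It did not pass the filter on low counts in DKO against GLO1KO. With no filter it was higher in DKO than in GLO1KO by 1.80 (adjusted p = 0.0138), with ranges that overlapped.

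Of the GDF ligands, 7 of 10 were tested against WT. gdf3, the zebrafish Vg1 ligand that pairs with nodal in the early embryo, held 0.821 to 1.31 CPM in WT (median 1.14), 2.15, 1.55, 1.81, 1.58 and 1.81 CPM in AKR1A1AKO, 1.18 to 2.29 CPM in GLO1KO (median 1.66) and 0.919 to 1.66 CPM in DKO libraries (median 1.37). All AKR1A1AKO libraries were above all WT libraries, and the GLO1KO and DKO ranges overlapped that of WT. gdf3 was the only pathway gene called higher in a single knockout, at 0.71 in AKR1A1AKO (SE 0.159, adjusted p = 0.00539) and 0.65 in GLO1KO (SE 0.175, adjusted p = 0.00465), and in DKO the value was 0.26 (SE 0.185, adjusted p = 0.244). GDF5, a ligand of developing joints, and gdf11, a regulator of axial patterning, were lower in DKO by -1.88 (SE 0.403, adjusted p = 0.000927) and -0.64 (SE 0.195, adjusted p = 0.0107), with ranges that overlapped WT. The WT libraries alone spread from 0.214 CPM in replicate 6 to 2.09 CPM in replicate 1 for GDF5. Its counts were 8 to 83 in WT and 7 to 14 in DKO libraries, so this call rests on few counts. GDF5 and gdf11 were named after their values were seen. GDF10 (ENSDARG00000095378), a member of the BMP3 branch, was below WT in all 6 DKO libraries at -0.53 (SE 0.0654, adjusted p = 7.68e-06), under the fold threshold.

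The co-receptor TGFBR3, or betaglycan, presents ligands, TGFB2 above all, to the signaling receptors. It held 2.77 to 5.39 CPM in WT (median 3.15), 2.65, 1.57, 2.07, 1.81 and 0.903 CPM in AKR1A1AKO, 0.553 to 1.22 CPM in GLO1KO (median 0.791) and 0.363 to 1.42 CPM in DKO libraries (median 0.670). All knockout libraries were below all WT libraries. The log2 fold change against WT was -2.19 (SE 0.294, adjusted p = 1.58e-05) in DKO, -2.03 (SE 0.228, adjusted p = 3.58e-06) in GLO1KO and -0.94 (SE 0.242, adjusted p = 0.00992) in AKR1A1AKO. Between DKO and GLO1KO the value was -0.15 (SE 0.333, adjusted p = 0.797).

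Among the type I receptors, 4 of 11 were called lower in DKO than in WT and none was called higher, where 18% of all genes tested were called lower. TGFBR1 (ENSDARG00000042259), the type I receptor for TGF-beta, held 13.8 to 16.3 CPM in WT (median 15.5), 12.9, 10.4, 8.65, 9.04 and 8.43 CPM in AKR1A1AKO, 5.21 to 7.30 CPM in GLO1KO (median 6.07) and 3.37 to 4.99 CPM in DKO libraries (median 4.18). The 4 genotypes did not overlap: every WT library was above every AKR1A1AKO library, these were above every GLO1KO library, and these were above every DKO library. This complete order, chosen after the values were seen, was shared by 15 of the 20136 genes tested over all libraries (0.0745%), and TGFBR1 (ENSDARG00000042259) was the only pathway gene among them. The log2 fold change was -1.86 (SE 0.0947, adjusted p = 1.9e-09) in DKO against WT, -1.33 (SE 0.0868, adjusted p = 4.01e-08) in GLO1KO against WT, -0.62 (SE 0.106, adjusted p = 0.00167) in AKR1A1AKO against WT and -1.23 (SE 0.128, adjusted p = 4.28e-06) in DKO against AKR1A1AKO. Between DKO and GLO1KO it was -0.52 (SE 0.112, adjusted p = 0.00467), below the fold threshold. The call in AKR1A1AKO was close to that threshold, with -0.58 without AKR1A1AKO replicate 3 and -0.57 without AKR1A1AKO replicate 5, at which it was no longer called.

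The second gene named TGFBR1 (ENSDARG00000017494) held 1.91 to 3.52 CPM in WT (median 2.46), 1.44 to 2.22 in AKR1A1AKO, 1.08 to 1.88 in GLO1KO and 0.971 to 1.43 in DKO libraries (median 1.29). All DKO and all GLO1KO libraries were below all WT libraries. Its log2 fold change was -1.05 (SE 0.168, adjusted p = 8.01e-05) in DKO and -0.72 (SE 0.175, adjusted p = 0.00223) in GLO1KO against WT. ACVR1B (ENSDARG00000052142), a type I receptor for activin and nodal, held 18.1 to 22.9 CPM in WT, 14.8 to 20.3 in AKR1A1AKO, 12.2 to 14.4 in GLO1KO and 9.41 to 12.6 in DKO libraries. The WT range lay above those of GLO1KO and DKO and overlapped that of AKR1A1AKO. Its value was -0.97 in DKO (SE 0.0932, adjusted p = 6.6e-07) and -0.62 in GLO1KO (SE 0.0722, adjusted p = 4.94e-06), the latter -0.58 and not called without WT replicate 1. BMPR1A (ENSDARG00000105045), a type I receptor for BMP, was lower at -0.59 (SE 0.0782, adjusted p = 1.3e-05), with 15.2 to 18.5 CPM in DKO against 21.6 to 29.8 CPM in WT libraries. It lost the call, at -0.53, without WT replicate 1, and at -0.57 without DKO replicate 5.

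**Figure D2:**
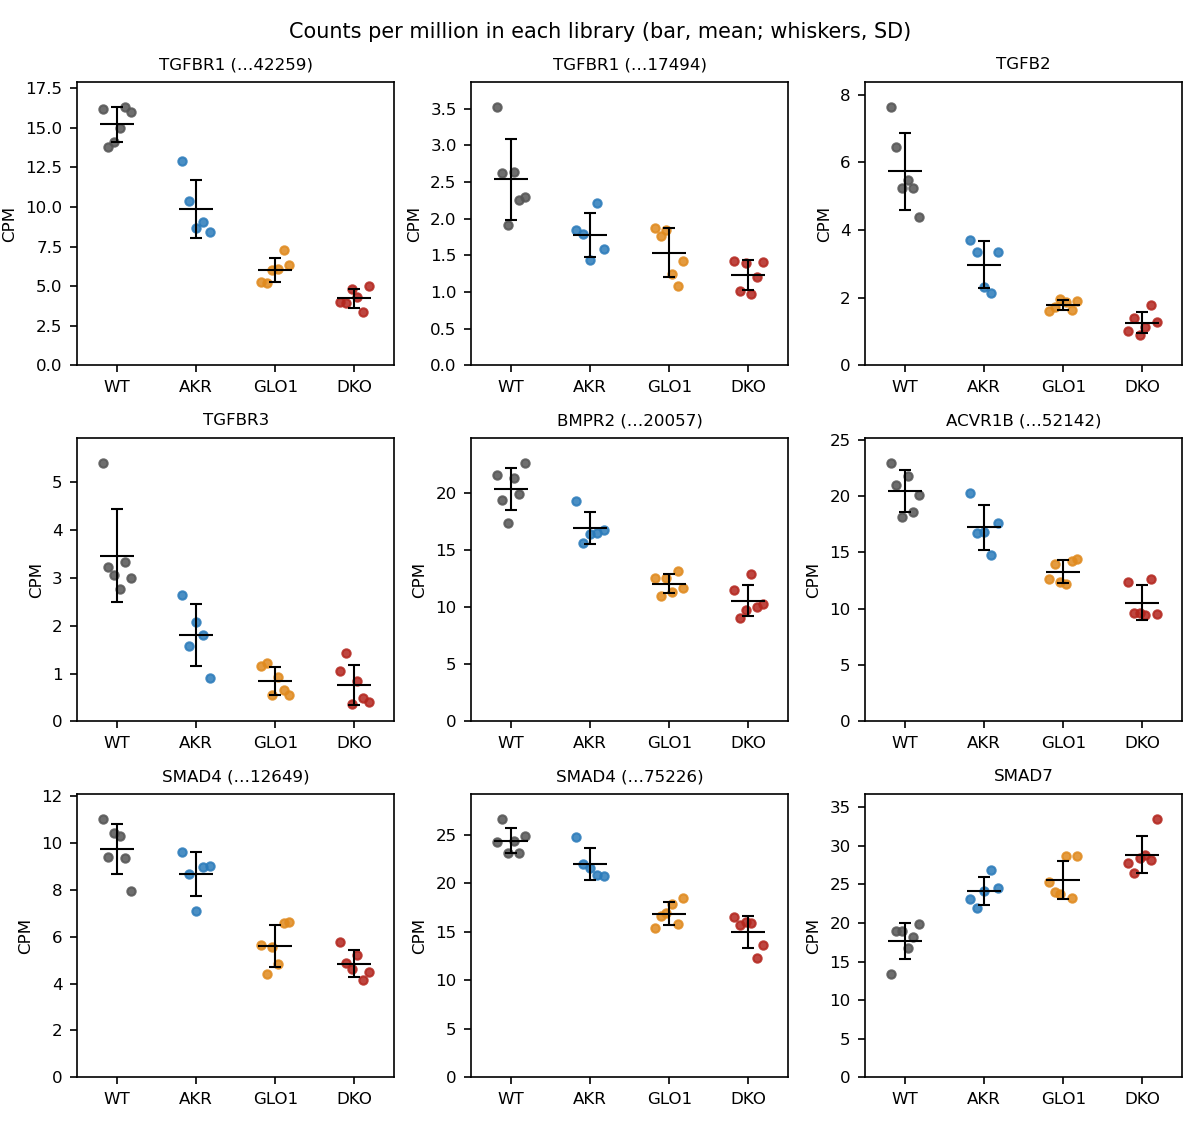
CPM in each library (points) with the genotype mean (bar) and SD (whiskers) for 9 pathway genes, with AKR for AKR1A1AKO and GLO1 for GLO1KO and each vertical axis starting at 0. TGFBR1 (ENSDARG00000042259) steps down over 4 ranges that do not overlap, TGFB2 and TGFBR3 fall below WT in every knockout, and SMAD7 lies above WT in every knockout.

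No other type I receptor was called in DKO against WT. The other BMPR1A gene (ENSDARG00000019728) held 38.8 to 45.4 CPM in WT and 51.3 to 56.1 CPM in DKO libraries, so the ranges did not overlap, and its value of 0.31 (SE 0.0474, adjusted p = 4.68e-05) was under the fold threshold. The other ACVR1B gene (ENSDARG00000018968) gave 0.22 (SE 0.0501, adjusted p = 0.00138). acvr1l, a zebrafish BMP type I receptor needed for ventral fates, gave 0.10 (SE 0.0437, adjusted p = 0.0623), and acvrl1, a receptor of endothelial cells, gave -0.40 (SE 0.113, adjusted p = 0.00689). Within WT acvrl1 already ranged from 9.96 to 16.8 CPM. The BMP receptors bmpr1ba and bmpr1bb gave 0.10 (adjusted p = 0.282) and 0.01 (adjusted p = 0.949).

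Of 9 type II receptors, 5 were called lower in DKO than in WT and none was called higher, where 18% of all genes tested were called lower. Without the fold threshold 7 of the 9 passed, where 61% of all genes did. BMPR2 (ENSDARG00000020057), a type II receptor for BMP, held 17.4 to 22.6 CPM in WT (median 20.6), 15.6 to 19.3 in AKR1A1AKO, 11 to 13.2 in GLO1KO (median 12.2) and 9.07 to 12.9 in DKO libraries (median 10.1). All GLO1KO and DKO libraries were below all WT and AKR1A1AKO libraries. Its log2 fold change was -0.96 (SE 0.0893, adjusted p = 4.91e-07) in DKO and -0.75 (SE 0.0718, adjusted p = 9.02e-07) in GLO1KO against WT. The activin receptor genes acvr2ab and ACVR2B (ENSDARG00000044422) were lower in DKO as well, at -0.63 (SE 0.0807, adjusted p = 1.01e-05) and -0.69 (SE 0.105, adjusted p = 4.81e-05), with no DKO library as high as any WT library. ACVR2B (ENSDARG00000044422) was also lower in GLO1KO, at -0.83 (SE 0.105, adjusted p = 1.06e-05). ACVR2A, another activin receptor, held 108 ± 11.2 CPM (SD, n = 6) in WT and 119 ± 7.30 CPM (SD, n = 6) in DKO libraries and gave 0.12 (SE 0.0678, adjusted p = 0.129), or -0.05 with scaling by library size alone.

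The type II receptors for TGF-beta itself varied within WT. TGFBR2 (ENSDARG00000059363) held 0.667 to 1.86 CPM in WT, 0.465 to 0.841 in AKR1A1AKO, 0.829 to 1.57 in GLO1KO and 0.341 to 0.882 in DKO libraries. Each knockout range overlapped that of WT. It was called in DKO (-0.90, SE 0.275, adjusted p = 0.0107) and in AKR1A1AKO (-0.85, SE 0.277, adjusted p = 0.0287) against WT. The call in AKR1A1AKO was lost without WT replicate 1 or 3 or AKR1A1AKO replicate 3 or 5, with values from -0.84 to -0.71. The other TGFBR2 gene (ENSDARG00000034541) held 24.3 to 36.9 CPM in WT and 17.7 to 23.4 CPM in DKO libraries, and its value of -0.54 (SE 0.0953, adjusted p = 0.000176) was under the fold threshold. tgfbr2l, which is named for its likeness to TGFBR2, was called at -0.98 (SE 0.252, adjusted p = 0.00345), with overlapping ranges.

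Both genes of the shared smad, SMAD4, were lower in DKO. SMAD4 (ENSDARG00000012649) held 7.96 to 11 CPM in WT (median 9.83), 7.10 to 9.60 in AKR1A1AKO, 4.41 to 6.63 in GLO1KO (median 5.58) and 4.14 to 5.75 in DKO libraries (median 4.74). SMAD4 (ENSDARG00000075226) held 23.1 to 26.6 CPM in WT (median 24.3), 20.8 to 24.8 in AKR1A1AKO, 15.4 to 18.5 in GLO1KO (median 16.8) and 12.3 to 16.5 in DKO libraries (median 15.8). For both genes the GLO1KO and DKO libraries were below all WT and AKR1A1AKO libraries, and AKR1A1AKO overlapped WT. In DKO against WT the log2 fold changes were -1.01 (SE 0.0996, adjusted p = 8.02e-07) and -0.71 (SE 0.0749, adjusted p = 1.55e-06), and in GLO1KO against WT -0.79 (SE 0.111, adjusted p = 2.43e-05) and -0.53 (SE 0.0585, adjusted p = 3.05e-06), the last under the fold threshold. smad10a followed the same order, with 5.03 to 6.98 CPM in WT, 3.94 to 6.76 in AKR1A1AKO, 2.81 to 5.02 in GLO1KO and 2.42 to 3.34 in DKO libraries, and gave -1.08 in DKO against WT (SE 0.121, adjusted p = 2.83e-06).

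The receptor-regulated smads were not called in any comparison. SMAD2 held 38.2 ± 2.25 CPM (SD, n = 6) in WT and 43.4 ± 1.44 CPM (SD, n = 6) in DKO libraries, a log2 fold change of 0.17 (SE 0.0497, adjusted p = 0.00692) with all DKO libraries above all WT libraries, which became -0.0031 with scaling by library size alone. SMAD3 moved the other way, at -0.47 (SE 0.0880, adjusted p = 0.000331), again with no overlap. The BMP smads SMAD5 and smad9 gave -0.34 (SE 0.0638, adjusted p = 0.000317) and 0.09 (SE 0.0942, adjusted p = 0.397).

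SMAD7, the inhibitory smad that targets the TGF-beta receptors for degradation, was the only pathway gene called higher in DKO than in WT. It held 13.4 to 19.9 CPM in WT (median 18.5), 23.1, 21.9, 24.1, 26.8 and 24.5 CPM in AKR1A1AKO, 23.2 to 28.6 CPM in GLO1KO (median 24.6) and 26.5 to 33.4 CPM in DKO libraries (median 28.3). All knockout libraries were above all WT libraries, and the knockout ranges overlapped one another. The log2 fold change was 0.69 (SE 0.0874, adjusted p = 8.86e-06) in DKO, 0.53 (SE 0.0896, adjusted p = 0.000122) in GLO1KO and 0.45 (SE 0.0924, adjusted p = 0.0037) in AKR1A1AKO, of which the latter 2 were under the fold threshold. With scaling by library size alone the value in DKO was 0.52 (adjusted p = 0.000111) and was not called. The SMAD6 genes, inhibitors of BMP signaling, gave -0.18 (ENSDARG00000031763, adjusted p = 0.107) and 0.19 (ENSDARG00000053209, adjusted p = 0.0263).

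Copies under 1 symbol were not always called alike in DKO against WT. Of the 11 symbols with 2 genes, both genes were called for 2 (SMAD4 and TGFBR1), 1 gene for 5 (ACVR1B, ACVR2B, BMPR1A, BMPR2 and TGFBR2) and neither for 4 (BMP1, BMP2, GDF10 and SMAD6). Over all genes tested, 25.3% were called in this comparison, and a split call is not by itself a difference between copies. The copies had fold changes of opposite sign for ACVR1B, BMP1, BMPR1A and SMAD6. For BMPR2 one copy fell by 0.96 on the log2 scale while the other (ENSDARG00000011941) gave -0.03 (SE 0.0702, adjusted p = 0.718). The difference between the copies of a pair was not itself tested.

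**Figure D3:**
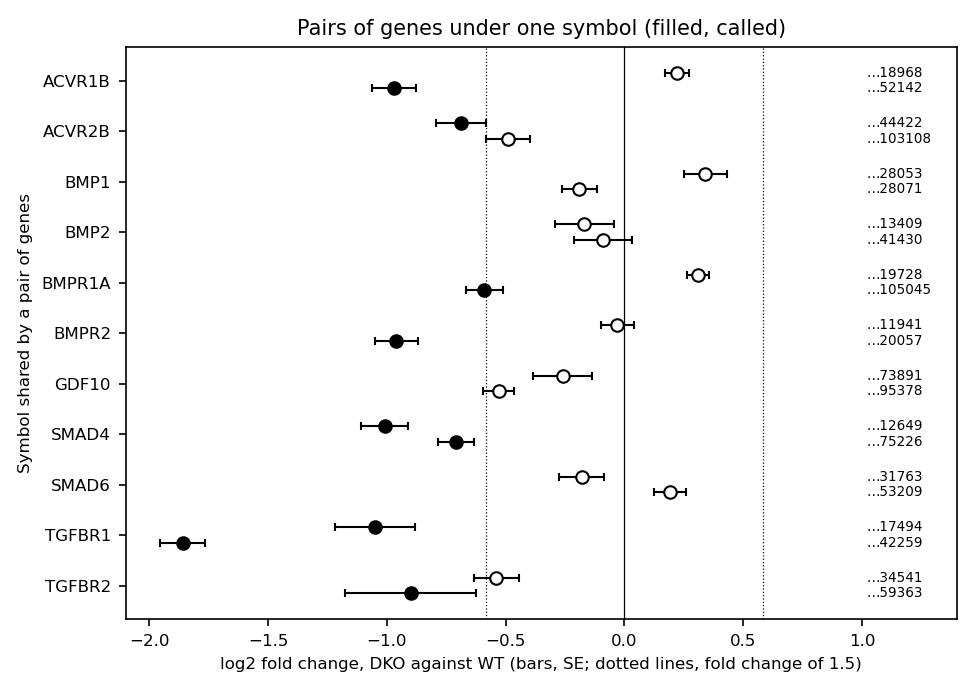
Log2 fold change in DKO against WT (points, with SE as bars; filled where called) of both genes under each of 11 shared symbols, with the last digits of the Ensembl IDs at the right in the order drawn. Both TGFBR1 and both SMAD4 genes lie left of the dotted line that marks a fold change of 1.5, while the copies of ACVR1B and BMPR1A lie on both sides of 0.

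The 5 proteases, binding and matrix proteins were not called in DKO against WT. All 5 had an adjusted p below 0.05, as did 61% of all genes tested. TGFBI, a matrix protein induced by TGF-beta, held 188 to 249 CPM in WT and 164 to 188 CPM in DKO libraries and gave -0.35 (SE 0.0615, adjusted p = 0.000177). BMPER, which binds BMP ligands outside the cell, gave -0.48 (SE 0.124, adjusted p = 0.00355), and TGFBRAP1, a receptor-associated protein, -0.52 (SE 0.116, adjusted p = 0.00119). The tolloid protease gene BMP1 (ENSDARG00000028053), whose product cleaves procollagens and the BMP antagonist chordin, gave 0.34 (SE 0.0913, adjusted p = 0.00497), and all DKO libraries were above all WT libraries.

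In GLO1KO against WT, 14 pathway genes were lower and 1 was higher, of 58 tested, where 24.5% of all genes were called (17.7% lower and 6.85% higher). The share of the pathway genes was 25.9%, and their median log2 fold change was -0.30. CPM ranges did not overlap for 26 genes, 22 of them lower, against 39.6% of all genes, 20.1% lower, and 42 genes passed without the fold threshold, against 63.1% of all genes. With scaling by library size alone 22 were lower and none was higher. Under that scaling 5193 of all 19758 genes tested were called, 762 of them higher (14.7% of those called). Under TMM 4841 were called, 1353 of them higher. Without WT replicate 1, 13 of the 15 calls remained. In AKR1A1AKO against WT 5 were lower and 1 higher, of 58, where 11.5% of all genes were called (9.28% lower and 2.26% higher), and the median was -0.18. The 6 calls were TGFB2, TGFBR3, TGFBR1 (ENSDARG00000042259), TGFBR2 (ENSDARG00000059363) and bmp7a, all lower, and gdf3, higher. CPM ranges did not overlap for 11 genes, 7 of them lower, against 18.8% of all genes, 8.87% lower, and 22 genes passed without the fold threshold, against 37.6%. Without WT replicate 1, 5 were called, and without AKR1A1AKO replicate 3 or replicate 5 there were 4. These comparisons and that of DKO share the WT libraries, so their calls are not independent of each other.

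In DKO against AKR1A1AKO, 9 pathway genes were lower and 1 was higher, of 59 tested, where 11.9% of all genes were called (8.11% lower and 3.77% higher). The lower genes were TGFB2, TGFBR3 and TGFBR1 (ENSDARG00000042259), GDF5 and tgfbr2l, with BMPR2 (ENSDARG00000020057) at -0.69 (SE 0.0894, adjusted p = 2.84e-05), ACVR1B (ENSDARG00000052142) at -0.72 (SE 0.0995, adjusted p = 4.72e-05), SMAD4 (ENSDARG00000012649) at -0.85 (SE 0.104, adjusted p = 1.74e-05) and smad10a at -0.77 (SE 0.150, adjusted p = 0.000802). For each of these last 4 no DKO library was as high as any AKR1A1AKO library. The ranges overlapped for TGFBR3, tgfbr2l and GDF5. The call of GDF5 rests on few counts, 9 to 40 in AKR1A1AKO and 7 to 14 in DKO libraries. The gene that was higher was bmp7a, with ranges that overlapped. This call rests on few counts, 4 to 11 in AKR1A1AKO and 8 to 31 in DKO libraries. The gene passed the filter on low counts mainly through the DKO libraries, where it was higher. CPM ranges did not overlap for 15 genes, 12 of them lower, against 24% of all genes, 12.2% lower, and 27 genes passed without the fold threshold, against 41.1%. With scaling by library size alone 15.2% of all genes called were higher, against 745 of 2347 under TMM.

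Between DKO and GLO1KO none of 57 pathway genes was called by edgeR, where 4.24% of all genes were (1.26% lower and 2.98% higher). At an unadjusted p below 0.05 there were 17, against 30.7% of all genes, DESeq2 called 1, TGFBR2 (ENSDARG00000059363), and limma-trend called 0. The count was 1 without any one of the 6 GLO1KO libraries and without DKO replicate 2, 5 or 6, the gene being TGFB2 without DKO replicate 5 and bmp7a otherwise. bmp7a was not among the 57, as it did not pass the filter on low counts in the main fit. Without the fold threshold 7 passed, against 16.6% of all genes. TGFBR1 (ENSDARG00000042259) and TGFB2, both described above, ACVR1B (ENSDARG00000052142) at -0.35 (SE 0.0868, adjusted p = 0.0116) and BMPR2 (ENSDARG00000011941) at -0.32 (SE 0.0440, adjusted p = 0.000169) were lower in DKO. Both BMP1 genes, at 0.35 (ENSDARG00000028053, adjusted p = 0.00917) and 0.17 (ENSDARG00000028071, adjusted p = 0.0125), and TGFBI, at 0.13 (adjusted p = 0.0363), were higher. CPM ranges did not overlap for 4 genes, 2 of them lower, TGFBR1 (ENSDARG00000042259), BMPR2 (ENSDARG00000011941) and both BMP1 genes, against 7.16% of all genes, 2.61% lower.

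Across the genotypes, the group means fell in the order WT, AKR1A1AKO, GLO1KO, DKO for 19 of 59 pathway genes (32.2%), against 14.8% of all genes. They rose in that order for 1 gene, SMAD7, against 14.3% of all genes. The 19 genes comprised TGFB2 and tgfb1a, TGFBR3, both TGFBR1 genes, both SMAD4 genes, SMAD3 and smad10a, and 10 others. The order was chosen after the values were seen, and neighbouring means in it often did not differ beyond the spread of their libraries.

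The interaction asks whether the changes with both losses add up on the log2 scale, as the difference of DKO from GLO1KO less the difference of AKR1A1AKO from WT, over all 23 libraries. It was called for 2 of 59 pathway genes, 1 above and 1 below 0, where 13.4% of all genes were called, 10.2% above and 3.15% below 0. Without WT replicate 6 the count was 4, with BMPR2 (ENSDARG00000011941) and smad9 added. Without the fold threshold 14 passed, against 31.8% of all genes. The value was 3.54 for bmp7a (SE 0.598, adjusted p = 0.000174), with DKO near WT and both single knockouts lower, and -1.09 for gdf3 (SE 0.244, adjusted p = 0.00176), with both single knockouts higher. For bmp7a the single knockouts held at most 11 counts in any library, and the gene passed the filter through the groups where it was higher. BMPR2 (ENSDARG00000011941) held 45.6 to 59.9 CPM in WT, 58.8 to 63.3 in AKR1A1AKO, 59.8 to 66.2 in GLO1KO and 46.1 to 52.7 in DKO libraries. The DKO range lay within that of WT and below those of both single knockouts, and the interaction was -0.57 (SE 0.0827, adjusted p = 4.77e-05), just under the fold threshold. BMP1 (ENSDARG00000028071), at 52.7 to 75.0 CPM in WT, 42.4 to 49.3 in AKR1A1AKO, 45.0 to 49.3 in GLO1KO and 49.8 to 56.5 in DKO libraries, gave 0.53 (SE 0.0936, adjusted p = 0.000248). Among the 8 genes with the smallest p, the other values were 0.54 for smad9 (SE 0.129, adjusted p = 0.00271), 0.48 for TGFBI (SE 0.106, adjusted p = 0.00165), 0.38 for BMP7 (SE 0.103, adjusted p = 0.00647) and -0.34 for ACVR1B (ENSDARG00000018968, SE 0.0606, adjusted p = 0.000265). The other 6 of the 14 lay between -0.26 and 0.48, with adjusted p from 0.0099 to 0.035. For TGFBR1 (ENSDARG00000042259) it was 0.12 (SE 0.155, adjusted p = 0.599). The cartilage markers also had positive interactions, with 11 of 22 called higher, and 10 of 15 photoreceptor markers were called lower.

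**Figure D4:**
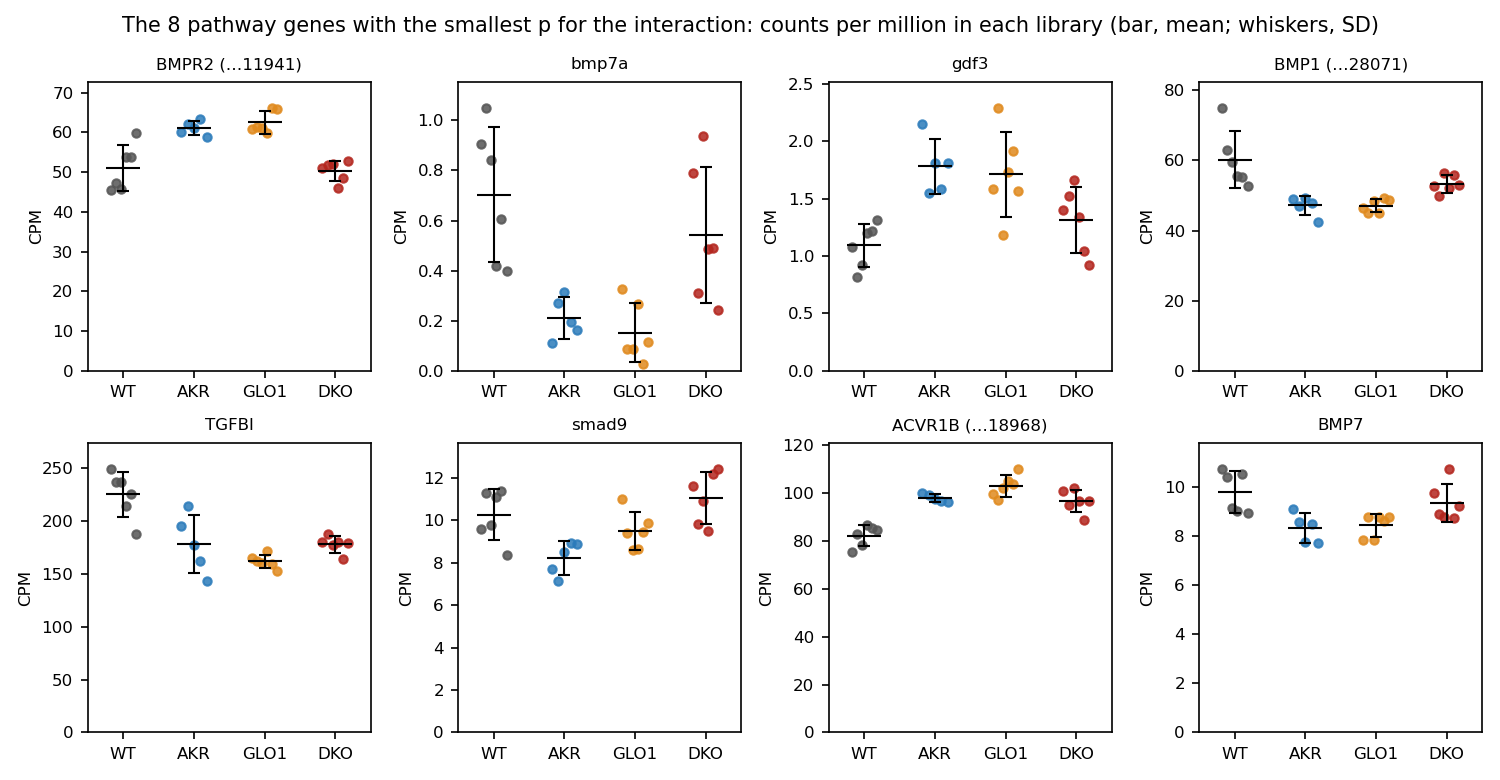
CPM in each library (points) with the genotype mean (bar) and SD (whiskers) for the 8 pathway genes with the smallest p for the interaction, with AKR for AKR1A1AKO and GLO1 for GLO1KO and each vertical axis starting at 0. For BMPR2 (ENSDARG00000011941) and gdf3 the single knockouts are above most WT and DKO libraries, and for bmp7a and BMP1 (ENSDARG00000028071) they are below.

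Other genes of the pathway were taken from lists written by function. In DKO against WT the antagonists and ligand carriers had 3 of 22 lower and none higher, the intracellular regulators 3 of 28 lower and 1 higher, the target genes 3 of 40 lower and 2 higher, the other ligands 1 of 7 lower, and the 9 co-receptors and pseudoreceptors no call. These shares were below those of all genes tested. lrrc32, which anchors latent TGF-beta at the cell surface, held 1.46 to 3.57 CPM in WT and 0.643 to 1.03 CPM in DKO libraries and gave -1.45 (SE 0.236, adjusted p = 9.11e-05). The BMP antagonist GREM1 (ENSDARG00000104618) gave -1.33 (SE 0.220, adjusted p = 0.000109), with no DKO library as high as any WT library.

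Among the intracellular regulators, zfyve9b, a copy of the anchor protein SARA that presents SMAD2 to the receptor, held 6.05 to 7.11 CPM in WT, 3.10 to 5.66 in AKR1A1AKO, 2.68 to 4.11 in GLO1KO and 2.08 to 3.01 in DKO libraries. All knockout libraries were below all WT libraries, and the value in DKO against WT was -1.39 (SE 0.101, adjusted p = 4.46e-08). The smad corepressor gene SKIL was lower in DKO at 7.94 to 8.88 CPM against 13.7 to 18 CPM in WT libraries (-0.94, SE 0.0746, adjusted p = 9.4e-08). fkbp1aa, whose product binds type I receptors and holds them inactive, was higher, at 432 to 488 CPM against 277 to 312 CPM (0.63, SE 0.0466, adjusted p = 5.14e-08).

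Among the target genes, TAGLN, an actin-binding protein of smooth muscle, held 25.6 to 36.8 CPM in WT, 26.6 to 34.2 in AKR1A1AKO, 24.8 to 34.2 in GLO1KO and 40.8 to 55.0 in DKO libraries. All DKO libraries were above all others. TAGLN was higher in DKO against WT (0.65, SE 0.0951, adjusted p = 3.63e-05) and against GLO1KO (0.67, SE 0.0769, adjusted p = 3.88e-05), and its interaction was 0.78 (SE 0.135, adjusted p = 0.000217). The cell cycle inhibitor cdkn1cb was higher in every knockout against WT. The value was 0.96 in DKO (SE 0.128, adjusted p = 1.5e-05) and 1.15 in GLO1KO (SE 0.115, adjusted p = 1.37e-06). In AKR1A1AKO it was 0.59 (SE 0.127, adjusted p = 0.00467), and the interaction was -0.76 (SE 0.163, adjusted p = 0.00122). The growth factor gene ccn2b (-0.82, SE 0.177, adjusted p = 0.00103) and the transcription factor RUNX3 (-0.60, SE 0.123, adjusted p = 0.000647) were the lower target genes named here. The DKO and WT ranges overlapped for ccn2b and did not for RUNX3. The feedback inhibitor PMEPA1, from the list of intracellular regulators, was also lower (-1.06, SE 0.243, adjusted p = 0.00159), with overlapping ranges. INHBB, from the list of other ligands, encodes a subunit of activin and was lower in DKO at -0.76 (SE 0.225, adjusted p = 0.00846), with overlapping ranges.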

How the data were processed

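RNA libraries were strand-specific DNBSEQ mRNA libraries from total RNA of whole larvae. The authors cleaned the reads (SOAPnuke), mapped them to the GRCz11 build (HISAT2) and assigned them to genes (featureCounts 2.0.3). The annotation release, the strand setting and the handling of multi-mapped reads are not given in the sources used here. The deposited table holds estimated counts without normalization, of which 94 genes have values that are not whole, none of them a pathway gene, and these were rounded. Symbols came from an ID table that matched 20170 of 22856 genes (88.2%).

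Counts were scaled by TMM and tested with edgeR 4.0.16 (R 4.3.3) by the quasi-likelihood test with filterByExpr, over the libraries of the groups compared, or over all 23 for the interaction, instead of limma as in the study. p was adjusted over all genes tested, and SE is the absolute log2 fold change over the root of F. The procedure was also run on simulated counts, with an outcome that is not given here. These counts were drawn with no trend within a genotype, so the run does not bear on the order of the WT libraries. No same-genotype pair of libraries agreed within counting noise (lowest mean chi-square per gene 5.91 over 55 pairs). Total counts were similar in all libraries (34316527 to 36804437), whereas the spread between libraries differed between genotypes, as the values in the report show.

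The pathway genes, lists and tests were chosen with earlier results of these data known. Named genes were TGFBR1 (ENSDARG00000042259), up to 30 genes called in DKO against WT without overlap, up to 8 called genes with the smallest p in each other pairwise comparison, up to 8 with adjusted p below 0.05 for the interaction, the gene with the highest mean CPM in each role, and up to 12 called genes of the lists in DKO against WT, by the smallest p. Other genes given with values were named after these were seen. A gene of the lists that the rule names is not reported here. Alternatives were DESeq2 1.42.0 and limma 3.58.1 tests, other scaling, no filter, 1 fit of all libraries, adjusted p alone, the replicate number as a block, and leaving out each library.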

Additional observations from a re-analysis of the deposited data

Results flagged for a closer look

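In 4 of the 104 groups of libraries examined for the 26 named pathway genes, 1 library lay farther from the others than a 95% Dixon limit, where 1 in 20 groups, or 5.2, would by chance. SMAD7 was 33.4 CPM in DKO replicate 6, with the next library at 28.8. TGFBR3 was 5.39 CPM in WT replicate 1, with the next at 3.33. ACVR2B (ENSDARG00000044422) was 5.26 CPM in GLO1KO replicate 6, with the next at 4.14. TGFB3 was 29.5 CPM in GLO1KO replicate 5, with the next at 27.1.

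The difference of DKO from GLO1KO was unlike that of AKR1A1AKO from WT for 14 of 59 pathway genes at an adjusted p below 0.05. The p is that of the interaction term of edgeR's test over all libraries. Of all genes tested 31.8% passed the same threshold, so the pathway genes did not stand out. For the 8 with the smallest p, the values were -0.57 for BMPR2 (ENSDARG00000011941, adjusted p = 4.77e-05), 3.54 for bmp7a (adjusted p = 0.000174), 0.53 for BMP1 (ENSDARG00000028071, adjusted p = 0.000248) and -0.34 for ACVR1B (ENSDARG00000018968, adjusted p = 0.000265). They were 0.48 for TGFBI (adjusted p = 0.00165), -1.09 for gdf3 (adjusted p = 0.00176), 0.54 for smad9 (adjusted p = 0.00271) and 0.38 for BMP7 (adjusted p = 0.00647).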

How the results depend on the processing

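With scaling by library size alone, 7 of 58 pathway genes changed sign in DKO against WT, none of them called, and of the 50 named values 2 did, SMAD2 to -0.0031 and ACVR2A to -0.05. With an adjusted p below 0.05 alone, the pathway genes counted were 36 in DKO against WT, 42 in GLO1KO against WT, 22 in AKR1A1AKO against WT, 7 in DKO against GLO1KO, 27 in DKO against AKR1A1AKO and 14 for the interaction. The shares of all genes tested were 61%, 63.1%, 37.6%, 16.6%, 41.1% and 31.8% in the same order. In DKO against GLO1KO the count of 0 became 1 with scaling by library size alone, with no filter on low counts, with the DESeq2 test and with all libraries in 1 fit. The gene was TGFBR2 (ENSDARG00000059363) with library size scaling and DESeq2, and bmp7a, which the filter had left out of the main fit, in the others. The cause was not tested. When single libraries were left out, the counts ran from 17 to 18, 13 to 16, 4 to 7, 0 to 1, 8 to 11 and 2 to 4 in the same order. Of 1026 refits of the 50 named values, 1005 kept their call and sign, 11 lost the call, 8 gained it and 2 changed sign. Same-numbered libraries did not deviate together in every pair of any comparison (correlations from -0.127 to 0.21). The correlation was above 0.1 in 3 of 6 pairs of GLO1KO with WT and in 3 of 5 pairs of AKR1A1AKO with WT. This check cannot exclude that the numbers pair the samples or share an order of handling, and the main tests treated the samples as unpaired. With the replicate number as a block, the counts were 18, 15, 6, 0, 9 and 3. Genes under about 1 CPM, such as bmp7a and TGFBR2 (ENSDARG00000059363), rest on few counts and depth limits them most.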
